A study of Rattus norvegicus with 14 samples.

Results

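The genes described here encode proteins that process RNA and subunits of the polymerases that make it. They were chosen by symbol alone, as genes whose names begin with Srsf, Hnrnp, Sf3a, Sf3b, Snrp, Snapc, Ddx, Dhx, Rbm, Prpf, Cpsf, Cstf, Lsm, U2af, Polr1, Polr2 or Polr3. Of the 2993 genes and 4993 transcription start sites (TSSs) in the table, 79 genes with 108 TSSs met this rule. Each gene was represented by its main TSS, the one with the highest mean in the sciatic nerve libraries. The table holds TSSs active in nerve that lie near an H3K4me3 ChIP-Seq peak overlapping a SOX10 ChIP-Seq peak, so every member was detected in nerve by construction. Genes of these families without such a TSS were not analysed here.

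Transcript 5′ ends were captured in 14 rat libraries by Tn5Prime, which anchors a template-switching oligo at the 5′ end of each RNA. Wild-type adult sciatic nerve (age 6 to 9 months) gave 2 libraries from independent nerves. Wild-type primary Schwann cells gave 3 libraries after vehicle and 3 after 3 days in 250 uM CPT-cAMP, a cell-permeable cAMP analogue used to drive differentiation, both in medium with 5% FBS. Parental S16 cells, an immortalised rat Schwann cell line with wild-type Sox10, gave 2 libraries, and ΔSOX10 S16 cells gave 4, both in medium with 10% FBS. The ΔSOX10 libraries came from clones named 1-1, 1-2, 2-1 and 2-2, edited in the first coding exon of Sox10 so that only frameshift alleles were found. The paper derived these 4 clones from 2 guide RNAs, by transfection, puromycin selection and sorting of single cells. Parental cells were unmodified, so the effects of these steps and of SOX10 loss cannot be told apart. The parental libraries were separate RNA isolations of 1 line, so their spread does not include that between clones. Library totals, as recovered from the RPM steps, ran from 29895599 to 79940274 reads, and 1 read was worth 0.0125 to 0.0334 RPM, the reads at a start site scaled to library size. It is not divided by transcript length.

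Introns are removed by the spliceosome, which is built from small nuclear ribonucleoproteins (snRNPs), each a small nuclear RNA with a ring of Sm or LSm proteins and its own partners. The U2 snRNP, with its SF3A and SF3B subunits, recognises the branch point, SR proteins and hnRNPs bind the pre-mRNA and influence which splice sites are used, and DEAD and DEAH box helicases remodel RNA and its complexes. SNAPc binds the promoters of the small nuclear RNA genes, which RNA polymerase II or III then transcribes. SOX10 is the transcription factor that drives the myelin genes of Schwann cells.

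The libraries were first compared with their labels. The only candidate TSS of Sox10 had 90.7 and 77.5 RPM in parental S16 cells and 0 to 0.114 RPM in the clones, which is 0 to 4 reads. Of 14 Schwann cell markers 12 had a candidate TSS, Pmp22 being the most abundant, and together they reached 73010 to 74037 RPM in nerve, 7807 to 14373 RPM in primary cells, 10843 to 11133 RPM in parental S16 cells and 196 to 475 RPM in the clones.

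Snapc2, a subunit of SNAPc, changed most of all members tested in either culture model, rising with cAMP and falling in the ΔSOX10 clones. Its main TSS lies at chr12:4692754-4692860 (rn5, minus strand, coordinates as deposited). It had 80.4 and 88.9 RPM in nerve. Control primary cells had 50.8, 62.6 and 57.5 RPM, and cAMP-treated cells had 251, 201 and 250 RPM. Every treated library lay above every control library and above both nerve libraries. The mean was 4.11 times higher with cAMP, and the log2 fold change of RPM + 1 was 2.02 (SE 0.14, adjusted p = 2.64e-10, limma with Benjamini-Hochberg adjustment over 4119 TSSs).

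In S16 cells the same TSS had 103 and 112 RPM in the parental libraries. The clones had 24.5 RPM (1-1), 12.3 RPM (1-2), 10.2 RPM (2-1) and 37.9 RPM (2-2). All 4 clones lay below both parental libraries, though they differed among themselves. The parental mean was 5.07 times that of the clones, and the log2 fold change was -2.47 (SE 0.47, adjusted p = 0.012, limma over 3875 TSSs). The call was lost when low TSSs were kept in the fit and when only clones 2-1 and 2-2 were used.

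Snapc2 had 5 candidate TSSs within 2348 bp. The next highest of them in nerve, at chr12:4692258-4692290, had 15.4 and 13.3 RPM there. It had 1.21, 3.26 and 4.94 RPM in control cells and 41.4, 34.2 and 44.3 RPM with cAMP. The groups did not overlap, and the log2 fold change was 3.42 (SE 0.40, adjusted p = 7.67e-07, limma). In S16 cells it had 2.62 and 3.40 RPM in the parental libraries and 0.20 to 1.39 RPM in the clones, a log2 difference of -1.32 that was not called (adjusted p = 0.11, limma). The main TSS held a mean of 90.2% of the RPM of the gene in control cells, 83.7% with cAMP, 78.4% in nerve, 95.1% in parental S16 cells and 68.7% in the clones, where it ran from 55.4% to 87.0%. The TSS at chr12:4693263-4693284 had 4.88 and 0.181 RPM in the parental libraries and 8.08, 9.10, 6.07 and 5.42 RPM in the clones, which all lay higher, but it was not called (adjusted p = 0.182, limma). In the RefSeq annotation of GRCr8 Snapc2 lies on the opposite strand from the deposited rn5 strand, as do its neighbours Timm44 and Elavl1, and Timm44 starts 22.9 kb from Snapc2 in the deposited table and 23.5 kb from it in GRCr8.

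**Figure D1:**
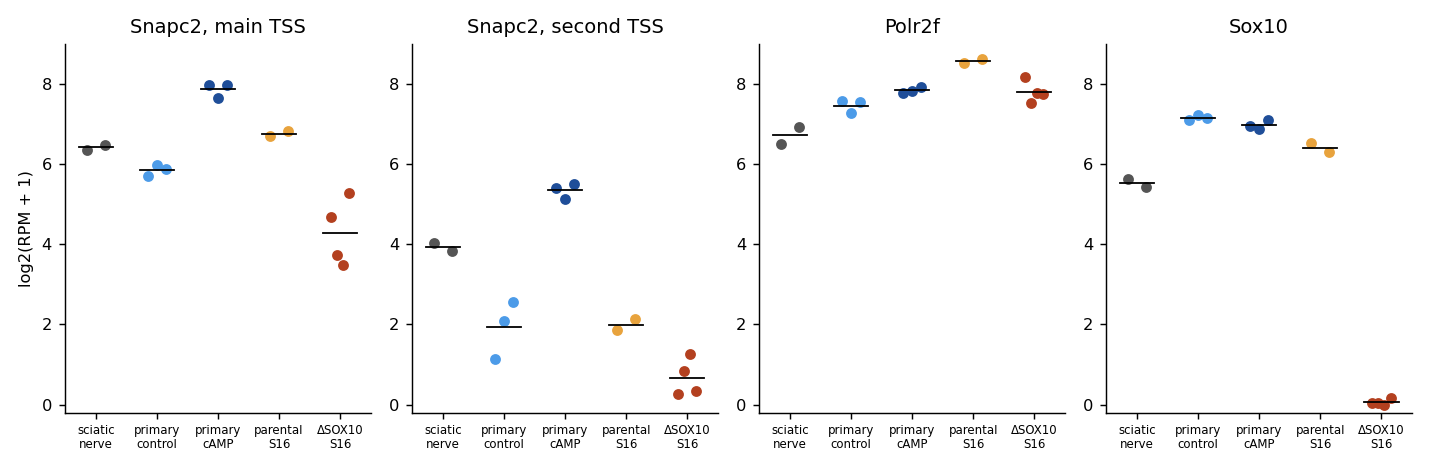
Levels of the main and second Snapc2 start sites, of Polr2f and of Sox10 in all 14 libraries, as log2(RPM + 1) on 1 shared scale. Each point is 1 library and each line a group mean. The main Snapc2 TSS is at 201 to 251 RPM in the cAMP libraries and 10.2 to 37.9 RPM in the ΔSOX10 clones, where Sox10 is at 0 to 0.114 RPM.

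Polr2f encodes a subunit shared by RNA polymerases I, II and III, and its TSS at chr7:120374343-120374453 (rn5, plus strand) lies 21934 bp from that of Sox10, which is on the minus strand. Nerve had 89.9 and 121 RPM of Polr2f. Control cells had 189, 154 and 185 RPM and cAMP-treated cells 218, 228 and 241 RPM, so that the groups did not overlap. The log2 fold change with cAMP was 0.38 (SE 0.11, adjusted p = 0.0159, limma). Parental S16 cells had 370 and 393 RPM, and the clones had 286 (1-1), 185 (1-2), 217 (2-1) and 215 RPM (2-2). The clones were again all lower, with a log2 fold change of -0.77 (SE 0.20), but the adjusted p of 0.05 lay only just under the threshold (limma). That call held in 8 of the 19 fits made, counting the one given here, with log2 fold changes of -0.89 to -0.59.

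Promoters are shown for the members called in the clones. They are also shown for the 3 members with the largest called change in each direction with cAMP. The part of these promoters in those changes was not tested. They are the RefSeq windows of GRCr8 from 250 bases before to 50 after the annotated start, read on the strand of the gene. Snapc2 is at chr12:7403400-7403699 (plus strand), Polr2f at chr7:112592814-112593113 (plus), Hnrnpa1 at chr7:136253868-136254167 (plus), Polr1d at chr12:13118020-13118319 (minus), Sf3b4 at chr2:186421417-186421716 (plus), Hnrnpdl at chr14:9861466-9861765 (plus) and Ddx5 at chr10:92231879-92232178 (minus). Capitals mark matches on either strand to the letters searched, which were ACAAAG and ACAATG (SOX), TGACGTCA and its part TGACG (CRE), CCGGAAG (ETS), GCGCATGC (NRF1), CCAAT (NF-Y) and TATAAA. The positions of the measured rn5 TSSs within these windows were not determined.
Snapc2: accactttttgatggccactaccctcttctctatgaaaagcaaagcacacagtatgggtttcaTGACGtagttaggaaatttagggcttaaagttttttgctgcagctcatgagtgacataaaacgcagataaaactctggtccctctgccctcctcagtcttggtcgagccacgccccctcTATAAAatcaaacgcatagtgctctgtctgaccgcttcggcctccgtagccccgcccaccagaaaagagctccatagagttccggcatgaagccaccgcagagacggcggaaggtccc
Polr2f: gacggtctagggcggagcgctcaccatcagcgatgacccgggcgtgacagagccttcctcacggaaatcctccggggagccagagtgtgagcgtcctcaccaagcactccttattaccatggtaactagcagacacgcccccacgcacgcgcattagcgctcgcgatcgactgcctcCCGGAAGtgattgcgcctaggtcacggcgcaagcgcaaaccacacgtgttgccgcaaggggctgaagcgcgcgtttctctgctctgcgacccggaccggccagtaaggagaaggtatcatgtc
Hnrnpa1: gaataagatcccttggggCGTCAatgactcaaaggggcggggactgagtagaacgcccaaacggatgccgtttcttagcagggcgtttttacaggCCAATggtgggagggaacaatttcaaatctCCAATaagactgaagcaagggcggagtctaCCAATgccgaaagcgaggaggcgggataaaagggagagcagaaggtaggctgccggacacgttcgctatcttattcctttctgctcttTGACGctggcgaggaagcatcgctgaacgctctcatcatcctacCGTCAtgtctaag
Polr1d: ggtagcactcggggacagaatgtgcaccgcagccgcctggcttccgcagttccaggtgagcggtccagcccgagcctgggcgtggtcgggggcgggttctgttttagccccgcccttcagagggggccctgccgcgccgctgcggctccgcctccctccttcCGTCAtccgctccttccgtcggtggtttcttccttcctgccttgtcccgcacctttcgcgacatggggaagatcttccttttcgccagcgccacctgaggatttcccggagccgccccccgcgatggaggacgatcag
Sf3b4: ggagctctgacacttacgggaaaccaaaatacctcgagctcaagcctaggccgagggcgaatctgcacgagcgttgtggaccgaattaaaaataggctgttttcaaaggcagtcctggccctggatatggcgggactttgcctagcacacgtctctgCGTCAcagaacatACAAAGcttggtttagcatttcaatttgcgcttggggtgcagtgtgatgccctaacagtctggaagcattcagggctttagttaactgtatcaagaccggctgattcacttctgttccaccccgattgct
Hnrnpdl: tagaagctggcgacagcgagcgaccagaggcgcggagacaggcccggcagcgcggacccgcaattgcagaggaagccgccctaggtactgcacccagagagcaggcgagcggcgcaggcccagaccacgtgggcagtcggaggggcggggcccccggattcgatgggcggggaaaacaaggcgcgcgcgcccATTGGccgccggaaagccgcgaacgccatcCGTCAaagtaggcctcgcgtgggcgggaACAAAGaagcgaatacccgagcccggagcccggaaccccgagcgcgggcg
Ddx5: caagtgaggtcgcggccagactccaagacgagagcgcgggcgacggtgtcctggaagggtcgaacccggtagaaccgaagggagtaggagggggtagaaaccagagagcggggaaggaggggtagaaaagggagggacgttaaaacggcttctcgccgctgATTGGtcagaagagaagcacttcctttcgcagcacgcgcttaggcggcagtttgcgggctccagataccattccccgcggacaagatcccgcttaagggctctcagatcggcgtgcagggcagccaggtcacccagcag

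Neither the Snapc2 nor the Polr2f window held ACAAAG or ACAATG. Snapc2 held TGACG and TATAAA, and Polr2f held CCGGAAG. Hnrnpa1 held CCAAT at 3 places and TGACG, on either strand, at 3. Over the 72 of 79 members with a promoter in the table, TGACG was present in 47.2%, against 38.6% of the 2395 genes with a candidate TSS and 22.0% of all 27457 promoters. CCGGAAG was present in 36.1% of members, 24.0% of genes with a candidate TSS and 9.22% of all promoters. One or the other of ACAAAG and ACAATG was present in 27.8%, 18.3% and 28.6%, and TATAAA in 6.94%, 6.14% and 14.3%, in the same order. CCAAT was present in 43.1%, 38.9% and 37.7%, GCGCATGC in 8.33%, 6.68% and 2.66%, and TGACGTCA in 4.17%, 3.67% and 1.91%. The median promoter of a member was 58.7% G or C, and that of a gene with a candidate TSS 61.0%. These shares are descriptions, and a match of letters is not a bound site.

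With cAMP, 7 members rose and 7 fell out of 77 tested. Over all 2832 genes tested with 1 TSS each, 13.5% rose, 13.9% fell and 27.4% were called in all, against 18.2% of the members, a difference that was not tested. Snapc4 and Ddx58 were too low to test. The median log2 fold change was -0.08 over the members and -0.03 over all genes tested, and the 77 values ran from -1.12 to 2.02. In 24 members every treated library lay on 1 side of every control library, as it did in 40.6% of all genes.

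Hnrnpa1, an abundant hnRNP that binds exonic and intronic silencers, was the second largest rise. Its main TSS at chr7:142647328-142647414 had 98.5, 105 and 110 RPM in control cells and 261, 204 and 221 RPM with cAMP. The treated libraries were all higher, and the log2 fold change was 1.12 (SE 0.12, adjusted p = 4.17e-07, limma). Hnrnpa1 has processed pseudogenes that could share reads with it, and how such reads were assigned is not given in the sources used here. Polr1d, a subunit of RNA polymerases I and III, had 193, 171 and 206 RPM in control cells and 451, 329 and 411 RPM with cAMP (chr12:11839735-11839841). Its log2 fold change was 1.05 (SE 0.12, adjusted p = 3.41e-07, limma). Its other TSS, at chr12:11840571-11840631, rose from 19.6, 9.23 and 12.8 RPM to 40.1, 52.4 and 36.8 RPM, by 1.61 on the log2 scale (SE 0.29, adjusted p = 0.000212, limma).

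The other rises were smaller. Ddx3x, a helicase with roles in translation, had 9.40, 14.7 and 21.5 RPM in control cells and 30.5, 23.8 and 27.1 RPM with cAMP, a log2 fold change of 0.86. Lsm2, a ring protein of the U6 snRNP, changed by 0.58, and Hnrnpa2b1, the most highly expressed member in nerve, by 0.25. Ddx3x was called without each replicate in turn in 1 of 6 fits, Lsm2 in 2 of 6 and Hnrnpa2b1 in 3 of 6.

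Of the 8 U2 genes tested 3 fell, where 13.9% of all genes did, and all 3 encode SF3B subunits; no test was made of this count. Sf3b4 had 72.4, 57.9 and 87.5 RPM in control cells and 34.7, 37.6 and 28.8 RPM with cAMP (chr2:217799588-217799635). All treated libraries were lower, and the log2 fold change was -1.07 (SE 0.20, adjusted p = 0.000338, limma). Sf3b2 fell by 0.42 from 347, 312 and 344 RPM to 238, 232 and 279 RPM, and Sf3b6, which contacts the branch point, fell by 0.42 from 172, 192 and 198 RPM to 128, 149 and 141 RPM. The other members of the U2 group, Sf3a2, Sf3a3, Sf3b1, Sf3b3 and U2af1, were not called, and the median over all 8 was -0.10.

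The remaining falls were in Hnrnpdl, Ddx5, Polr2j and Ddx24. Hnrnpdl, an hnRNP D-like protein, had 33.7, 43.4 and 44.7 RPM in control cells and 23.7, 19.7 and 28.6 RPM with cAMP, a log2 fold change of -0.74. Ddx5, a helicase that also acts as a transcriptional coregulator, changed by -0.44, Polr2j, an RNA polymerase II subunit, by -0.37 and Ddx24 by -0.32. The call on Ddx24 was lost whichever replicate was left out, and those on Hnrnpdl and Polr2j each held in 2 of 6 such fits, on Polr2f in 3, on Ddx5 in 4 and on Sf3b6 in 5. Of the 14 calls, those of Snapc2, Hnrnpa1, Polr1d, Sf3b4 and Sf3b2 held in all 18 fits made, counting the one given here.

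**Figure D2:**
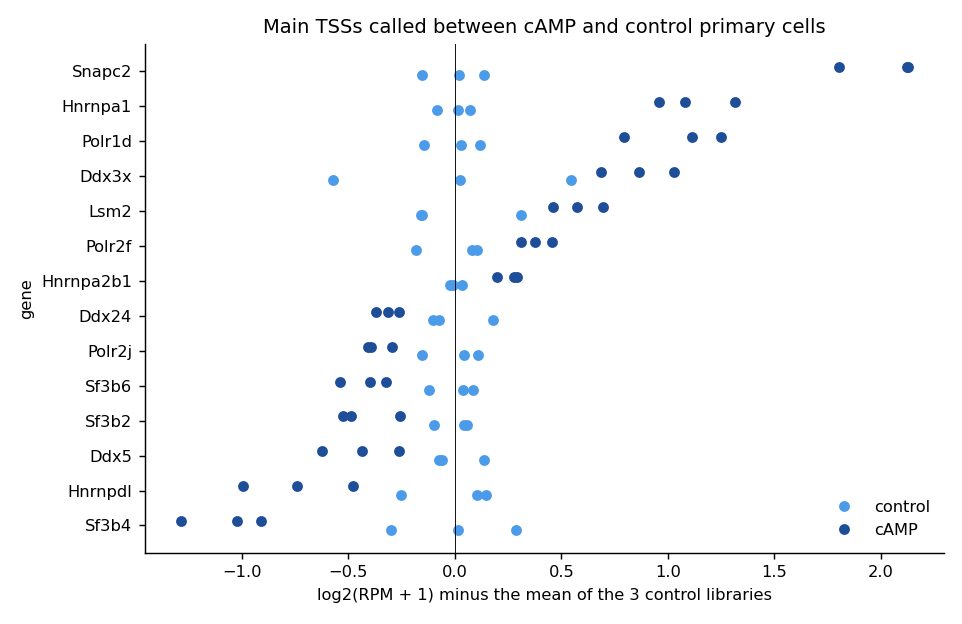
The 14 members called between cAMP-treated and control primary Schwann cells. Each point is 1 library, as log2(RPM + 1) minus the mean of the 3 control libraries of that gene. The groups do not overlap in any of the 14, and the rise of Snapc2 (2.02) and the fall of Sf3b4 (-1.07) are the largest in their directions.

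By role, DEAD and DEAH box helicases had 1 rise and 2 falls among 18 tested, hnRNPs 2 rises and 1 fall among 11, and RNA polymerase II subunits 1 rise and 1 fall among 6. The 6 snRNP and LSm genes had 1 rise (Lsm2), the 3 RNA polymerase I genes 1 rise (Polr1d) and the 3 SNAPc genes tested 1 rise (Snapc2). Of all genes tested 13.5% rose, 13.9% fell and 27.4% were called, and no role group was tested against these shares. None was called among 5 PRPF, 3 SR, 6 RBM, 5 RNA polymerase III and 3 cleavage and polyadenylation genes in limma. At an unadjusted p under 0.05 these groups held 1 SR gene that was higher and 1 RBM and 1 RNA polymerase III gene that were lower, and DESeq2 called Srsf3, Rbm42 and Polr3k among them.

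Splicing genes outside the naming rule were taken from a list of 93, of which 49 had a candidate TSS. With cAMP 5 rose and 4 fell, so that 18.4% were called against 27.4% of all genes, with a median of 0.09. Celf2, a regulator of alternative splicing, had 21.4, 19.8 and 29.6 RPM in control cells and 1.26, 2.19 and 6.75 RPM with cAMP, a log2 fold change of -2.66 (SE 0.46, adjusted p = 0.00014, limma). Aqr, a helicase of the spliceosome, had 23.2, 26.7 and 20 RPM against 2.31, 5.92 and 2.1 RPM (-2.54). Wbp4, a spliceosome-associated protein, changed by -0.59. Srpk2, a kinase of SR proteins, had 2.1, 0.0306 and 1.36 RPM in control cells and 9.54, 13.1 and 8.35 RPM with cAMP (2.51). Pcbp2 changed by 0.97, Tardbp by 0.80, Tra2a by 0.66 and Mbnl2 by 0.35. Of 53 genes of 3′ end processing, capping and export, 13 had a candidate TSS, and Nxt1, a cofactor of mRNA export, was the only call (-1.05).

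Other gene groups moved with the treatment. Of 16 immediate early and dissociation genes 10 had a candidate TSS. Among 9 tested 3 rose (Fos, Ier3 and Nr4a1) and 4 fell (Ier5, Jun, Klf6 and Zfp36), where 27.4% of all genes were called. Their sum was 1106 to 1191 RPM in control and 665 to 783 RPM in treated cells. Jun made up 478 to 612 RPM of it in control and 55.1 to 67.4 RPM in treated cells. Of 20 cell cycle genes only Pcna had one, and it rose by 0.44. Summed over their TSSs, Pdgfrb had 0.779 to 1.91 RPM in control and 22.4 to 29.6 RPM in treated cells, Col1a1 803 to 909 RPM and 370 to 466 RPM, and the Schwann cell markers together 7807 to 8013 RPM and 12583 to 14373 RPM. The part of these groups and markers in the results above was not tested.

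In the ΔSOX10 clones, no member rose and 2 fell, Snapc2 and Polr2f, out of 78 tested. Over all 2763 genes tested, 1.99% rose, 5.5% fell and 7.49% were called. The groups did not overlap in 9 members, against 30.1% of all genes. The median log2 fold change was -0.20 over the members and -0.17 over all genes tested. At an unadjusted p under 0.05 in limma, 0 members were higher and 4 lower, against 149 higher and 402 lower of the 2763 genes. In edgeR 0 members were called higher and 1 lower. The next were Ddx39b, a helicase of spliceosome assembly and mRNA export, at -0.70 (adjusted p = 0.158), and Dhx36, a helicase of G-quadruplexes, at -1.12 (adjusted p = 0.0784, limma). Dhx36 had 1.24 and 1.17 RPM in the parental libraries and 0.051, 0, 0 and 0 RPM in the clones, and it was called with a pseudocount of 0.1 and when low TSSs were kept. Ddx39b was called with all 14 libraries in 1 model.

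Of the 77 members tested in both culture models, 63 were called in neither, 12 with cAMP alone and 2 in both, and these models share no libraries. Of all genes tested 27.4% were called with cAMP and 7.49% in the clones. The share of all genes called in both was not counted, so the 2 members cannot be set against it. Snapc2 and Polr2f, the members called in both, were higher with cAMP and lower in the clones. Of the other members called with cAMP, Hnrnpa1 had a log2 fold change of -0.32 in the clones, Polr1d of 0.30 and Sf3b4 of 0.05, with adjusted p of 0.491, 0.53 and 0.948 (limma). Among the 49 other splicing genes, Gemin8, which takes part in snRNP assembly, fell from 152 and 135 RPM in the parental libraries to between 50.7 and 84.9 RPM in the clones (-1.07, adjusted p = 0.033). Luc7l3, a U1-associated protein, fell from 59.9 and 61.0 RPM to between 28.2 and 37.2 RPM (-0.86, adjusted p = 0.046, limma), and none of these genes rose. Of 9 immediate early and dissociation genes tested 3 rose and 1 fell in the clones, with sums of 559 to 714 RPM in the parental libraries and 893 to 1228 RPM in the clones, and the summed TSSs of Col1a1 had 2254 to 2828 RPM and 2971 to 5302 RPM. Their part in the results was not tested.

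**Figure D3:**
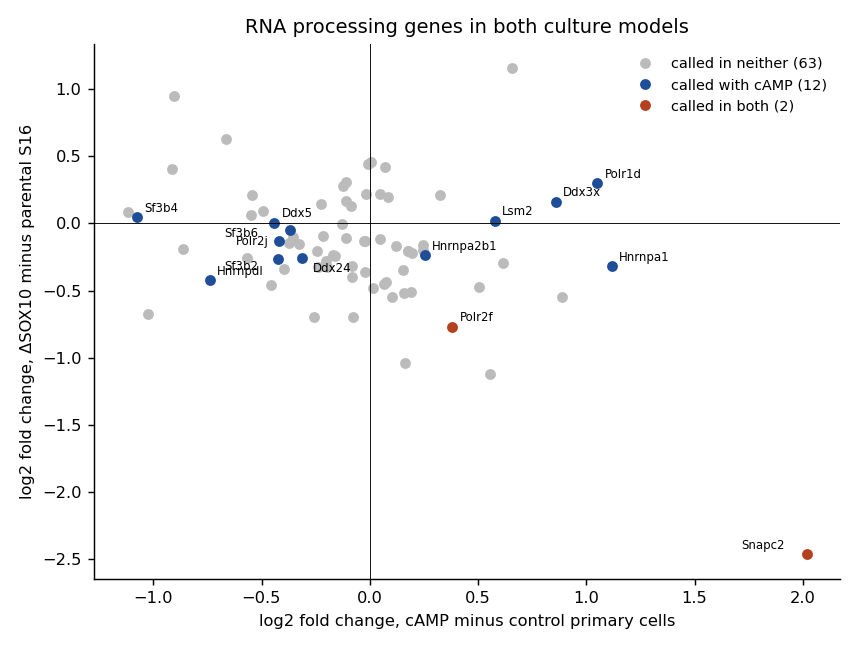
Log2 fold change of RPM + 1 with cAMP in primary Schwann cells (x axis) against that in ΔSOX10 S16 clones relative to parental cells (y axis). Each point is 1 of the 77 members tested in both. Snapc2 stands apart at 2.02 and -2.47, and Polr2f is the other gene called in both.

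Mean levels in nerve spanned 2.21 to 166 RPM over the members, with a median of 12.5 RPM against 12 RPM for all genes. The highest were Hnrnpa2b1 with 149 and 183 RPM, Polr2j with 117 and 141 RPM, Sf3b2 with 125 and 122 RPM, Lsm7 with 131 and 114 RPM and Polr2f with 89.9 and 121 RPM. Both libraries of Hnrnpa2b1 lay above those of the other 4, and both of Sf3b2 above those of Polr2f, while the other pairs among the 4 overlapped. At the other end 17 members had a mean under 5 RPM in nerve, and Snapc4 had 0 and 7.87 RPM. By role, the median was 54.5 RPM for the U2 group, 45.2 RPM for SR proteins, 32.3 RPM for RNA polymerase II subunits and 2.69 RPM for those of RNA polymerase I. The highest of the other groups were Ddx24 (helicases), Prpf6 (PRPF), Rbm42 (RBM), Polr1d (RNA polymerase I), Polr3k (RNA polymerase III), Srsf3 (SR) and Cpsf3 (cleavage), the last the endonuclease that cuts pre-mRNA before polyadenylation.

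In parental S16 cells 35 members were higher than in nerve and 1 was lower, out of 79 tested, where over all 2930 genes tested 35.6% were higher, 11.2% lower and 46.7% called. The groups did not overlap in 61 members, against 75.4% of all genes. The median log2 fold change was 1.06 over the members and 0.63 over all genes tested. The nerve values used here also chose the main TSS of each gene and the TSSs in the table, so the nerve side is not independent of the choice. Among the 63 members with 1 TSS, where no choice was made within the gene (a restriction set after seeing the data), 25 were higher (39.7%, against 34.1% of the 2251 such genes tested) and 1 lower, with a median of 1.00 against 0.67. This comparison depends on the scaling. The median over all tested TSSs, not 1 per gene, was 0.02 as deposited, -0.68 after median-ratio and -0.33 after TMM scaling. With median-ratio scaling 18 members were higher and 4 lower. The share of all genes called with that scaling is not given here, so these counts cannot be set against it. In nerve, fewer cells of a type and less RNA per cell cannot be told apart.

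Hnrnpa1 differed most, with 17.8 and 14 RPM in nerve and 249 and 235 RPM in parental S16 cells, a log2 fold change of 3.85. It has 3 TSSs, and the one shown was chosen by its nerve level, so this value is given without a test. Hnrnpf, an hnRNP that binds G-rich sequence, had 6.49 and 8.76 RPM against 67.8 and 53.4 RPM (2.84). Snrpb, a core Sm protein, had 29.8 and 25.7 RPM against 182 and 227 RPM (2.83). Srsf3, an SR protein, changed by 2.66 and Snrpa, a U1 snRNP protein, by 2.46. Hnrnpf, Snrpb, Srsf3 and Snrpa, each with 1 TSS, were called in all 16 fits made, counting the one given here. Ddx17, a paralogue of Ddx5, was the only member that was lower, with 38.3 and 43.4 RPM in nerve and 21.0 and 17.7 RPM in S16 cells (-1.04, adjusted p = 0.0193, limma), and that call was lost without parental replicate 2.

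By role, 8 of 11 hnRNPs, 5 of 6 snRNP and LSm genes, 4 of 8 genes of the U2 group, 3 of 3 SR proteins and 7 of 19 helicases were higher in S16 cells. Of the polymerase subunits, 1 of 3 for RNA polymerase I, 2 of 6 for II and 1 of 5 for III were higher, and of 4 SNAPc genes none was called in limma, with 0 at an unadjusted p under 0.05. These counts include members with more than 1 TSS, such as Hnrnpa1, whose main TSS was chosen by its nerve level. They were not repeated by role for members with 1 TSS and are descriptions only. Of all genes tested 35.6% were higher and 46.7% were called. Among the other splicing genes 22 of 49 were higher and 1 lower, or 46.9% called, which is near that background. The higher ones were led by Ptbp1 (3.80), Gemin8 (2.88), Magohb (2.77), Ewsr1 (2.64) and Phf5a (2.45). The lower one was Qk (-3.34), an RNA-binding protein needed for myelination. Of the 13 genes of 3′ end processing and export 7 were higher, namely Pabpc1 (6.23), Ints10 (2.86), Nudt21 (2.54), Exosc4 (2.16), Thoc6 (1.86), Nxt1 (1.55) and Nxf1 (0.93).

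**Figure D4:**
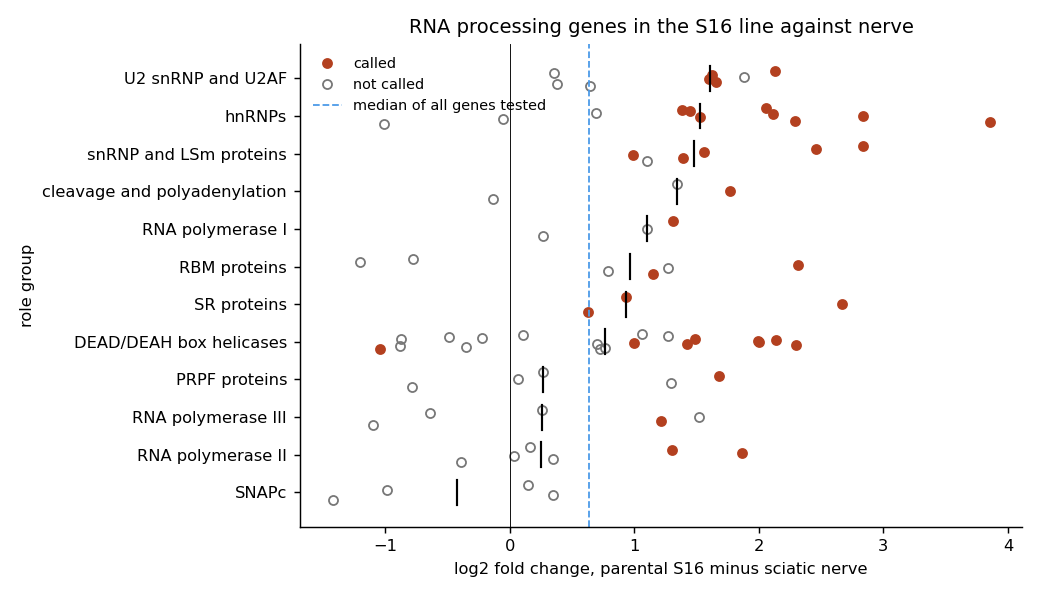
Log2 fold change of RPM + 1 in parental S16 cells relative to sciatic nerve, by role group. Each point is 1 member, filled where called, the black lines are group medians and the dashed line is the median of all genes tested (0.63). Hnrnpa1 is the rightmost point at 3.85, and Ddx17 is the only called member below 0, at -1.04.

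Control primary cells had a mean above that of nerve in 69 of 79 members (87.3%, against 73.9% of all genes) and a median ratio of 2.48 against 1.89. After median-ratio scaling, a choice made after seeing the data, the control mean was above nerve in 51 members (64.6%, against 47.4% of all genes), with a median ratio of 1.23 against 0.945. The nerve libraries are those of the S16 comparison and also chose the main TSSs, so the 2 comparisons are not independent. The primary cells were sequenced on another instrument than nerve, which cannot be told apart from the difference in source, and no test was made. Markers of other cells were sparse in the table. None of 6 endothelial and 3 perineurial markers had a candidate TSS, and 1 of 6 macrophage markers did (Csf1r, 4.82 and 1.07 RPM in nerve and 0 in parental S16 cells). So did 1 of 5 pericyte markers (Pdgfrb, 30.6 and 54.8 RPM against 4.95 and 6.66 RPM) and 1 of 4 adipocyte markers (Cfd, 83.4 and 44.1 RPM against 1.56 and 2.23 RPM). The 2 of 6 fibroblast markers with one went opposite ways. Col1a1 had 130 and 135 RPM in nerve against 2828 and 2254 RPM in parental S16 cells, and Pdgfra 3.71 and 2.50 RPM against 1.29 and 0.674 RPM. Pcna was higher in S16 cells by 2.2 on the log2 scale, and of 10 immediate early and dissociation genes 6 were higher and 1 lower, with sums of 246 and 278 RPM in nerve and 714 and 559 RPM in S16 cells. The part of these genes and markers in the result was not tested.

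Most members had 1 candidate TSS, 63 of 79 (79.7%, against 77.0% of all genes). A second TSS at 20% or more of the main one in nerve was found in Ddx31, Ddx3x, Ddx5, Hnrnpa0, Hnrnpa1, Hnrnpd and Hnrnpdl by the mean of both libraries. All 7 met this in nerve 2 alone, but only Ddx3x, Hnrnpa0 and Hnrnpa1 did in nerve 1, where the second TSSs of Ddx31 and Hnrnpd had no read. That of Ddx3x had 1.34 and 5.34 RPM in nerve and no read in any of the 12 culture libraries, which allows up to 0.0375 to 0.0855 RPM by library (3 reads). The second TSS of Hnrnpdl had 2.41 and 8 RPM in nerve and 0 to 0.178 RPM in culture, except for 1 control library with 1.47 RPM. Of the 29 TSSs of members that were not main, 6 had no read in any culture library (20.7%), against 11.5% for such TSSs of all genes.

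The main TSS lay within its H3K4me3 peak in 77 of 79 members (97.5%, against 96.0% of all genes) and within the SOX10 peak in 61 (77.2%, against 70.0%). That of Polr2f lay within its SOX10 peak, and that of Snapc2 lay 155 bp outside. In 14 members the same H3K4me3 peak held the main TSS of another gene, 13 of them on the opposite strand. With cAMP 3 of these 14 members were called, where 27.4% of all genes tested were. Such pairs were not counted over all genes. In 1 pair of the members both genes were called. That pair was Hnrnpdl and Enoph1, a gene of methionine salvage 1032 bp away, which had 13.3, 16.6 and 22.7 RPM in control cells and 47.9, 42.5 and 37.5 RPM with cAMP. Enoph1 rose by 1.26 on the log2 scale (SE 0.26, adjusted p = 0.000816, limma), while Hnrnpdl fell by 0.74. The partners of Hnrnpa2b1 and Ddx5, Cbx3 and Cep95, were not called with cAMP. Sppl2b, 40 bp from Lsm7, rose by 0.50 with cAMP and fell by 1.08 in the clones, and Lsm7 was not called in either.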

How the data were processed

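Tn5Prime reads from 14 rat libraries were processed by the authors, who trimmed adapters (cutadapt 1.14), mapped to rn5 (STAR 2.5.2a, SAMtools 1.9), clustered start positions with Make_CTSS and Paraclu and counted reads per TSS (featureCounts of Subread 1.6.1). The deposited values are RPM per TSS. The authors' log2 fold changes and FDR p-values (edgeR 3.24.3), also deposited, were not used. The nerve and S16 libraries were sequenced on another instrument than the primary cells. Library totals were inferred from the RPM worth of 1 read. With them, 100% of the low values given to enough digits came out within 0.05 of a whole read, and 8.59% to 9.35% of values above 0 in the parental libraries and clones 1-1 and 1-2 were rounded to 3 digits.

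Tests were restricted to TSSs exceeding 1 RPM in 2 or more of the libraries compared and made on log2(RPM + 1) with limma 3.58.1 in R 4.3.3 (trended prior). P-values were adjusted (Benjamini-Hochberg) over all TSSs tested, with a threshold of 0.05, separately in the 3 comparisons. Recovered reads were tested with edgeR 4.0.16 and DESeq2 1.42.0 as alternatives (edgeR called 6 members higher and 6 lower with cAMP, 0 and 1 in the clones, 24 and 2 in S16 cells), beside other pseudocounts, filters and scalings, left-out replicates, pairs of clones and a replicate block. Scripts were tested on simulated data. Limits from 0 reads cover counting error only. Named members were those called in either culture model, up to 5 called in each direction in S16 cells against nerve, the 5 highest in nerve and the highest of each role group, and those with a second TSS at 20% or more of the main one. From the other lists, called genes were named, or 5 in each direction where over 10 were called, except for a gene that is not reported here. Ddx39b, Dhx36, Enoph1, Cbx3, Cep95 and Sppl2b were named after their values were seen. Members and gene lists were chosen with earlier results of these data known. Sequences are from RefSeq (GRCr8), of which 72 of 79 members matched by symbol.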

Additional observations from a re-analysis of the deposited data

Results flagged for a closer look

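Of 78 members checked in the 4 ΔSOX10 clones, 4 had 1 clone far from the others, and chance gives about 1 in 20. Rbm28 had 20.7 RPM in clone 2-1 and 33.7 to 35.6 RPM in the other clones. Ddx58 had 0 RPM in clone 2-1 and 0.968 to 1.14 RPM in the others. Ddx54 had 28.4 RPM in clone 2-2 and 17.0 to 17.8 RPM in the others. Dhx36 had 0.051 RPM in clone 1-1, which is 2 reads, and 0 in the others.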

How the results depend on the processing

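No call on a named member reversed. With cAMP, 4 members were higher and 3 lower when low TSSs were kept, 3 and 2 with all 14 libraries in 1 model, and 11 were lower with DESeq2. In the ΔSOX10 clones several fits called 1 member lower, but not the same one. It was Snapc2 with median-ratio or TMM scaling, with edgeR and with clones 1-1 and 1-2 alone. With clones 2-1 and 2-2 alone it was Polr2f. When low TSSs were kept it was Dhx36, and neither Snapc2 nor Polr2f was called. The median log2 fold change over the members was -0.036 with median-ratio scaling. In S16 cells against nerve, median-ratio scaling gave 18 higher, 4 lower and a median of 0.35, and TMM 2 lower and a median of 0.72. The median was 0.74 with a pseudocount of 5 and 1.24 among TSSs with a mean of at least 5 RPM, and 2 members were lower with edgeR and 3 with DESeq2. Shares and medians of all genes with 1 TSS each are not given for these alternative fits. The causes were not tested. Leaving out 1 library at a time gave 4 to 7 members higher and 3 to 7 lower with cAMP, with the lowest counts without control 2, cAMP 2 or cAMP 3 (4 higher) and without control 3 (3 lower). It gave 1 to 2 lower in the clones, where only leaving out clone 1-1 kept both, and 25 to 40 higher and 0 to 2 lower in S16 cells, with a median of 0.92 to 1.07 (0 lower without parental 2, 2 lower without nerve 1). With the replicate number as a block, 8 members were higher and 8 lower with cAMP and 38 higher and 1 lower in S16 cells, but same-numbered cAMP and control libraries did not deviate together (r of 0.0294, 0.00751 and 0.0379), so the numbers give no pairing.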
